A study of Mus musculus with 2 samples.

Results

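The genes described here are the interferon genes Ifnb1 and Ifng, the receptor chain genes Ifnar1, Ifnar2, Ifngr1 and Ifngr2, and the Janus kinase genes Jak1, Jak2, Jak3 and Tyk2. They were taken by symbol from the annotation, and all 10 were found among the 55536 gene rows of the deposited tables. Polyadenylated RNA had been sequenced from macrophages that were grown in culture from the bone marrow of C57BL/6J mice. The series holds 1 group of 2 libraries, biological replicates 1 and 2, from cells stimulated at 100 ng/mL for 300 min. The agent is Lipid A in one label and lipoprotein A, listed as a protein, in the others, so it is called the stimulus here. No unstimulated cells were analysed, so every value is a level at 300 min and none is a response. The libraries came from 2 biosamples listed under a single donor record, and the spread between them (SD, n = 2) may hold technical as well as biological variation. Expected counts, which are estimated reads or fragments per gene, summed to 38078399 in replicate 1 and 63705317 in replicate 2.

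Interferons are secreted proteins that cells release on sensing microbes, and macrophages are a known source of interferon beta downstream of Toll-like receptors. Type I interferons such as interferon beta bind a receptor of 2 chains, IFNAR1 with its bound kinase TYK2 and IFNAR2 with JAK1. Interferon gamma, made chiefly by T cells and natural killer cells, binds IFNGR1, which carries JAK1, and IFNGR2, which carries JAK2. The kinases phosphorylate STAT proteins, which enter the nucleus and act on interferon-stimulated genes, in the type I response together with IRF9. JAK3 works with the common gamma chain of interleukin receptors (Il2rg) and is part of neither interferon receptor. Mouse Ifnar2 is known to give soluble as well as membrane-bound receptor from alternative transcripts.

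Where the members' transcripts part bears on the results that follow, so those stretches are shown first. They are taken from the GENCODE M21 transcript sequences (mm10, plus strand), written 5′ to 3′. Shared bases up to the point where a pair of transcripts parts are in lower case, and the bases after that point are in capitals. Some bases in capitals also occur further on in the other transcript of the pair. The leading Ifnar2 transcript, Ifnar2-203, reads on past the end of the seventh exon of Ifnar2-201 for 127 bases, of which 35 are coding and are followed by a stop codon. Ifnar2-201 goes on instead to 2 further exons with 830 coding bases. The coding sequence is 513 codons in Ifnar2-201 and 248 codons in Ifnar2-203. The first stretch covers chr16:91393884-91393913 and chr16:91399218-91399255, the second chr16:91393884-91393951.
Ifnar2-201: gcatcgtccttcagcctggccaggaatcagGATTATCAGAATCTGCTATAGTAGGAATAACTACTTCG
Ifnar2-203: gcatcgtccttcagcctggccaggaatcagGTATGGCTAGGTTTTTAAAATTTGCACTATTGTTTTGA
Ifnar1-206, a transcript of 543 bases in 5 exons with no annotated coding sequence, leaves out the first 110 bases of the sixth exon of Ifnar1-201 and keeps its last 8. Both stretches begin at chr16:91495503-91495532, and go on at base 91496144 in Ifnar1-201 and at base 91496254 in Ifnar1-206, which runs through those 8 bases into the next exon.
Ifnar1-201: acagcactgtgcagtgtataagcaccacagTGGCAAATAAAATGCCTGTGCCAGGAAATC
Ifnar1-206: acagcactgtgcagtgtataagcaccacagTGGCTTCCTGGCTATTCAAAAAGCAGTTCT
Ifngr1-203 ends its second exon 14 bases earlier than Ifngr1-201 and is annotated as a target of nonsense-mediated decay, with a coding sequence of 75 codons against 477. Both begin at chr10:19597487-19597516, and Ifngr1-203 goes on at base 19601320.
Ifngr1-201: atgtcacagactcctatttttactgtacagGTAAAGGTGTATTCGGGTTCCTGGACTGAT
Ifngr1-203: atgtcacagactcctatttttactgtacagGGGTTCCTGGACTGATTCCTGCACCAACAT

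The macrophages carried all 4 receptor chains and all 4 kinases, and little of either interferon. By TPM, a share of all transcripts scaled to length, the receptor chains lay between 28.6 and 163 TPM in replicate 1 and between 31.4 and 221 TPM in replicate 2. The kinases lay between 12.1 and 262 TPM and between 11.3 and 231 TPM. The interferons reached 7.54 TPM at most. In all, 9 of the 10 genes reached 1 TPM in both libraries, the exception being Ifng, where 9982 of the 55536 genes did so. The median over the 11059 genes at 1 TPM in either library was 11.7 TPM in the first library and 10.95 TPM in the second, so Jak3 was near the middle of expressed genes, Ifnb1 below it and the other 7 detected members above it. All 7 macrophage markers were present, from Itgam at 53.4 and 56.2 TPM to Lyz2 at 10495 and 13567 TPM in replicates 1 and 2. Next to Lyz2 were Cd68 at 2496 and 5400 TPM and Adgre1 at 748 and 479 TPM, and Cd68 was 2.53-fold higher in replicate 2 by scaled counts.

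**Figure D1:**
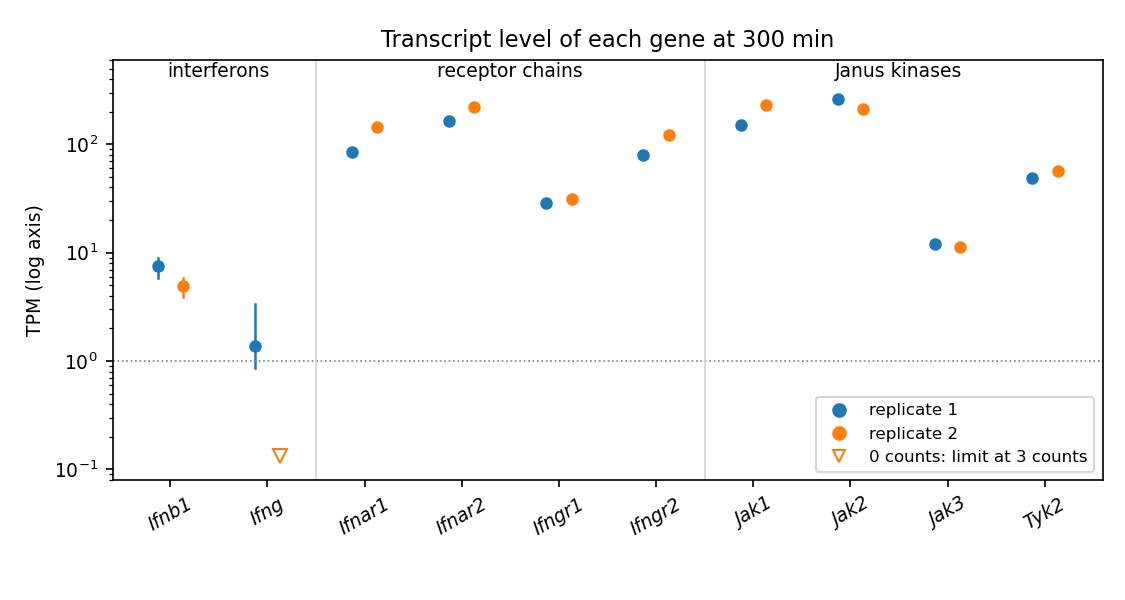
Level of each gene as TPM on a log axis, replicate 1 in blue and replicate 2 in orange; vertical lines are the deposited credibility intervals of TPM, the dotted line marks 1 TPM, and the open triangle is the limit that 0 counts of Ifng allow. The 4 receptor chains and 4 kinases lie above 10 TPM in both libraries and both interferons lie below it. For some genes the TPM lies outside its deposited interval, among them Jak2 in replicate 1, at 262 TPM against 249 to 255 TPM.

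Ifnb1, the interferon beta gene (ENSMUSG00000048806.4, chromosome 4, 88522025 to 88522774, minus strand, 1 annotated transcript), had 89 counts in replicate 1 (7.54 TPM) and 102 counts in replicate 2 (4.92 TPM). The mean was 6.23 ± 1.85 TPM (SD, n = 2), at the 39.8th and 33.4th percentile of expressed genes. The intervals deposited with the TPM values, whose level is not given in the sources used here, were 5.88 to 8.91 TPM and 3.94 to 5.80 TPM. They did not overlap, with replicate 1 higher. The fold of replicate 2 over replicate 1 was 0.65 by TPM. On library-scaled counts, however, it was 0.78 with a 95% exact counting interval of 0.579 to 1.04, which includes 1. A second deposited quantification gave 10.2 TPM from 144 counts and 6.29 TPM from 143 counts. The log2 ratio of scaled counts was -0.36, and -0.51 in the second quantification. It was 0.10 with the trend of the ratio on GC content and length removed. Ifnb1 transcripts were thus present in both libraries at a low level. Which library held more was not settled, as the sign of the ratio depended on the scaling.

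Ifng, the interferon gamma gene (ENSMUSG00000055170.4, chromosome 10, 118441046 to 118445892, plus strand), was seen in replicate 1 alone. It had 27 counts there, or 1.37 TPM, with an exact Poisson interval of 17.8 to 39.3 counts. Replicate 2, the deeper library, had 0 counts, which allows up to 0.132 TPM if the limit of a count of 0 is set at 3 counts. The intervals deposited with the TPM values were wider, at 0.868 to 3.38 TPM in replicate 1 and 0.0012 to 0.542 TPM in replicate 2, and did not overlap. On library-scaled counts Ifng was at least 13.3-fold higher in replicate 1, taking the 27 counts as they stand and 3 counts as the limit in replicate 2. The bound does not include the counting error of the 27. Of its TPM in replicate 1, 82.5% was in the coding transcript Ifng-201 and the rest in a retained-intron transcript, and the second quantification gave 29 and 0 counts. The Poisson interval and the limit of 3 counts cover counting error only.

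Markers of the cells that usually make interferon gamma were read beside it. Of 20 T and natural killer cell markers, 2 reached 1 TPM in both libraries, namely Cd4 at 44.8 and 79.8 TPM and Klrk1 at 56.1 and 31.9 TPM. The list summed to 103 TPM in replicate 1 and 113 TPM in replicate 2. Defining genes were at or near 0, with 1 count of Cd3e, 1 of Cd3d and 0 of Cd3g in replicate 1 and 0 of each in replicate 2, and 6 markers at 0 counts in both libraries, among them Trac, Trbc2, Gzma, Prf1 and Tbx21. A few markers had the same split as Ifng: Gzmb, a granzyme of killer lymphocytes, had 20 and 0 counts, Cd8a had 8 and 0, and the natural killer receptor gene Ncr1 had 5 and 0. Cd247, a signalling chain of both cell types, did not, with 21 and 48, and neither did Cd8b1 with 1 and 2 or Klrb1c with 0 and 1. The genes named with or against this split were picked after their values were seen. In all, 7 of the 20 markers were at 0 counts in replicate 1 and 13 were in replicate 2, although replicate 2 was deeper. Of the markers at 0 in replicate 2 alone, Cd3e, Cd3d and Trbc1 had 1 count in replicate 1 and Nkg7 had 2. The tally thus rests in part on very few reads. The neutrophil list also differed, with summed levels of 508 and 18.7 TPM, led by S100a9 at 316 and 10.2 TPM. Of its 10 markers, 3 reached 1 TPM in both libraries. The 4 with enough counts were all past 1.5-fold higher in replicate 1, where 19.1% of all genes tested were. Ly6g was at 0 counts in both libraries and Cxcr2 at 3 counts in each, so the difference was not seen in every marker. The part of either list in the Ifng difference was not tested. In such bulk RNA, fewer cells of a type and less RNA per cell cannot be told apart.

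No further interferon gene of those read reached 1 TPM in either library. Of 18 further members, 13 type I interferon alpha genes with Ifnab, Ifne and Ifnk, and the type III genes Ifnl2 and Ifnl3, all were at 0 counts in replicate 1. In replicate 2, 17 were at 0 and Ifna2 had 1 count. Genes that lead to interferon transcription were present. All 10 of that list reached 1 TPM in both libraries, with the transcription factors Irf7 at 1169 and 1172 TPM and Irf5 at 203 and 381 TPM, and the kinase Ikbke at 270.2 and 295 TPM, while the adaptor Traf3 was lowest at 5.33 and 7.01 TPM. Sting1, the adaptor of cytosolic DNA sensing (Tmem173 in the annotation), had 23.3 and 60.8 TPM, a 2.73-fold difference on library-scaled counts.

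The type I receptor genes Ifnar1 and Ifnar2 lie beside Ifngr2 on chromosome 16, with the interleukin-10 receptor chain Il10rb between Ifnar2 and Ifnar1. From the start of Ifnar2 to the end of Ifngr2 is 193 kb, and these 4 receptor genes were the ones within it at 1 TPM or more in both libraries. Ifnar2 (ENSMUSG00000022971.18, 91372783 to 91405589, plus strand) had 163 and 221 TPM in replicates 1 and 2, from 5341 and 10491.5 counts, a mean of 192 ± 41.0 TPM (SD, n = 2). Ifnar1 (ENSMUSG00000022967.13, 91485238 to 91507441, plus strand) had 85.1 and 146 TPM from 6877 and 13388 counts, a mean of 115 ± 42.8 TPM (SD, n = 2). By gene TPM the IFNAR2 gene was higher in each library, with log2 ratios of 0.94 and 0.60 in replicates 1 and 2 (mean 0.77 ± 0.24, SD, n = 2). By counts without length scaling it was lower, at -0.36 and -0.35.

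Most Ifnar2 TPM came from the short transcript. Ifnar2-203 took 71.8% of the gene's TPM in replicate 1 and 79.4% in replicate 2, with 117 and 176 TPM. Ifnar2-201, the transcript with the 513-codon coding sequence, took 24.0% and 15.0%, with 39.2 and 33.2 TPM. By counts the transcripts were closer, with 45.1% and 58.7% of the gene's counts in Ifnar2-203 and 50.9% and 36.4% in Ifnar2-201, since the short one yields fewer reads per molecule. The second quantification put 71.9% and 81.8% of TPM in Ifnar2-203. The intervals deposited for the transcripts were far apart, 107 to 118 TPM against 35.9 to 39.6 TPM in replicate 1 and 166 to 176 TPM against 31.1 to 33.7 TPM in replicate 2. The annotated IFNAR2 message of these macrophages was thus mainly one whose coding sequence stops before the last 2 exons of Ifnar2-201. Membrane anchoring, secretion and protein were not measured.

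Ifnar1 differed in transcript makeup between the libraries. Ifnar1-201 and Ifnar1-202, which carry the same 590-codon coding length, had 64.4 and 12.6 TPM in replicate 1 and 66.4 and 23.7 TPM in replicate 2. The non-coding Ifnar1-206 had 4.63 TPM from 31.1 counts in replicate 1 and 48.0 TPM from 589 counts in replicate 2, or 5.44% and 33.0% of the gene's TPM but 0.452% and 4.4% of its counts. Its deposited intervals were 0.161 to 10.8 TPM and 40.6 to 53.9 TPM, with replicate 2 higher. In the second quantification it was at 6.82 and 70.2 TPM, and there it led the gene in replicate 2. The effective length assigned to Ifnar1 was 3225 bases in replicate 1 and 2234 in replicate 2, and its TPM was 1.71-fold higher in replicate 2 where its scaled counts were 1.32-fold higher.

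**Figure D2:**
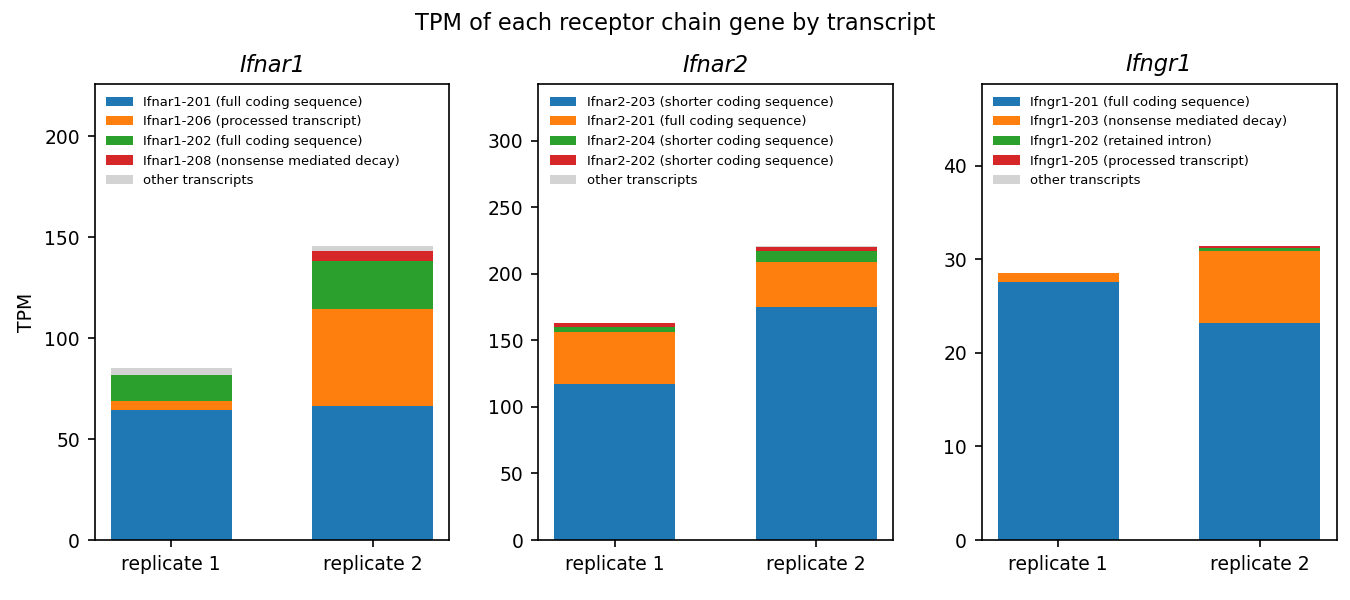
TPM of the receptor chain genes Ifnar1, Ifnar2 and Ifngr1 in replicates 1 and 2, stacked by transcript with the 4 highest transcripts in colour (named in each panel with their annotated kind) and the rest in grey. Ifnar2-203 holds 71.8% and 79.4% of Ifnar2, and Ifnar1-206 has 4.63 TPM in replicate 1 and 48.0 TPM in replicate 2.

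Counting only transcripts with the full coding sequence turned the order of the type I chains around. Full was set as at least 90% of the gene's longest annotated coding sequence, a choice made after the transcript values were seen. On that measure Ifnar1 had 77.0 and 90.1 TPM and Ifnar2 had 39.2 and 33.2 TPM. The log2 ratios of Ifnar2 over Ifnar1 were then -0.97 and -1.44 in replicates 1 and 2, and -0.93 and -1.43 in the second quantification, against 0.94 and 0.60 for all transcripts. The sign was the same in both libraries under each measure, and it differed between the measures.

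The interferon gamma receptor was less evenly made. Ifngr1, the ligand-binding chain (ENSMUSG00000020009.13, chromosome 10, 19591949 to 19610229, plus strand), had 28.6 and 31.4 TPM in replicates 1 and 2, an SD of 2.02 TPM (n = 2). Ifngr2, the second chain (ENSMUSG00000022965.8, chromosome 16, 91547072 to 91565623, plus strand), had 80.3 and 122 TPM (mean 101 ± 29.6, SD, n = 2). Ifngr2 was 2.81-fold above Ifngr1 in replicate 1 and 3.88-fold in replicate 2, a mean log2 ratio of 1.72 ± 0.33 (SD, n = 2), and the ranges did not overlap. Ifngr1 was the lowest of the 4 receptor chains in both libraries. Ifngr1-201 held 96.4% and 73.9% of its TPM, and the nonsense-mediated decay transcript Ifngr1-203 held 3.57% and 24.3%. That last share was 3.11% and 5.12% in the second quantification, so the quantifications differed on Ifngr1-203 in replicate 2. Nearly all Ifngr2 TPM was in Ifngr2-201, at 80.3 and 122 TPM. In the second quantification that share was 84.3% and 93.4%, with 13.4 and 7.11 TPM in the nonsense-mediated decay transcript Ifngr2-202.

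The lambda receptor, which pairs IFNLR1 with the chain encoded by Il10rb, had one chain only. Il10rb stood at 210.4 and 218 TPM, against 163 and 221 TPM of Ifnar2, and Ifnlr1 had 4 counts in replicate 1 and 0 in replicate 2.

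Jak2 and Jak1 were the most abundant of the kinases, and their order differed between the libraries. Jak2 (ENSMUSG00000024789.13, chromosome 19, 29251828 to 29313080, plus strand) had 262 TPM from 30839 counts in replicate 1 and 210.3 TPM from 40958 counts in replicate 2, a mean of 236 ± 36.3 TPM (SD, n = 2). Jak1, which serves both interferon receptors (ENSMUSG00000028530.14, chromosome 4, 101152367 to 101265282, minus strand), had 150.1 TPM from 16972 counts and 231 TPM from 43442 counts, a mean of 191 ± 57.2 TPM (SD, n = 2). Jak1 over Jak2 had log2 ratios of -0.80 and 0.14 in replicates 1 and 2, so neither kinase was above the other beyond the spread.

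Tyk2 and Jak3 were lower. Tyk2, the kinase bound to IFNAR1 (ENSMUSG00000032175.11, chromosome 9, 21104068 to 21131243, minus strand), had 49.3 and 57.1 TPM (mean 53.2 ± 5.52, SD, n = 2). Jak1 exceeded it 3.04-fold in replicate 1 and 4.04-fold in replicate 2. Jak3 (ENSMUSG00000031805.17, chromosome 8, 71676296 to 71690575, plus strand) was the lowest kinase, with 12.1 and 11.3 TPM (mean 11.7 ± 0.53, SD, n = 2), 12.4-fold and 20.4-fold below Jak1. Its partner chain Il2rg was much higher, at 277 and 424 TPM. The 4 kinases thus fell into a high pair and 2 lower levels, and the ranges of Tyk2 and Jak3 overlapped with no other kinase.

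The kinase genes were read mainly as full-length messages. Jak1-201 held 97.4% and 97.9% of Jak1 TPM, and Tyk2-203 held 89.3% and 91.6% of Tyk2 TPM. Jak3 was led by Jak3-202, with 47.9% and 79.9% of TPM, and Jak3-201, with 31.4% and 17.3%. Jak3-203, of equal coding length, had 1.21 and 0 TPM, and the retained-intron transcript Jak3-204 held 10.6% and 2.56% of TPM. Jak2 was divided between Jak2-201 (138 and 127 TPM) and Jak2-202 (124 and 83.4 TPM). The second quantification divided the same gene otherwise, with 106 and 87.1 TPM in Jak2-204, which the first listed at 0. All 3 of these Jak2 transcripts have a coding sequence of 1132 codons, and the gene totals of the quantifications were close, at 236 and 242 TPM on average. In the second quantification the short non-coding Jak1-204 was at 0 and 56.7 TPM, where the first gave 0 and 2.59 TPM.

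Set against its receptor and kinases, the interferon beta message was scarce. Ifnb1 was 11.3-fold below Ifnar1 in replicate 1 and 29.6-fold below it in replicate 2, a mean log2 ratio of -4.19 ± 0.98, and 21.7-fold and 45.0-fold below Ifnar2, a mean of -4.96 ± 0.75 (SD, n = 2 for each). By expected counts, which are not scaled to length, the log2 ratios were -6.27 and -7.04 against Ifnar1 and -5.91 and -6.68 against Ifnar2. With only full coding sequences counted, the TPM ratio to Ifnar2 was -2.38 in replicate 1 and -2.75 in replicate 2. Ifnb1 was below each of the 8 receptor and kinase genes in both libraries, Jak3 being the nearest. The median receptor chain stood at 82.7 and 134 TPM and the median kinase at 99.7 and 134 TPM, a mean log2 ratio of -0.13 ± 0.19 (SD, n = 2), which is within the spread. That call depended on the transcripts counted. The ratio was -0.31 ± 0.022 with protein-coding transcripts and -0.91 ± 0.27 with full coding sequences (SD, n = 2 for each). The median kinase was then higher beyond the spread between the libraries, which does not measure the spread among the genes of each kind. By full coding sequence Jak3, at 10.8 and 11.0 TPM, lay below even the lowest receptor chain, Ifngr1, at 27.6 and 23.2 TPM.

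**Figure D3:**
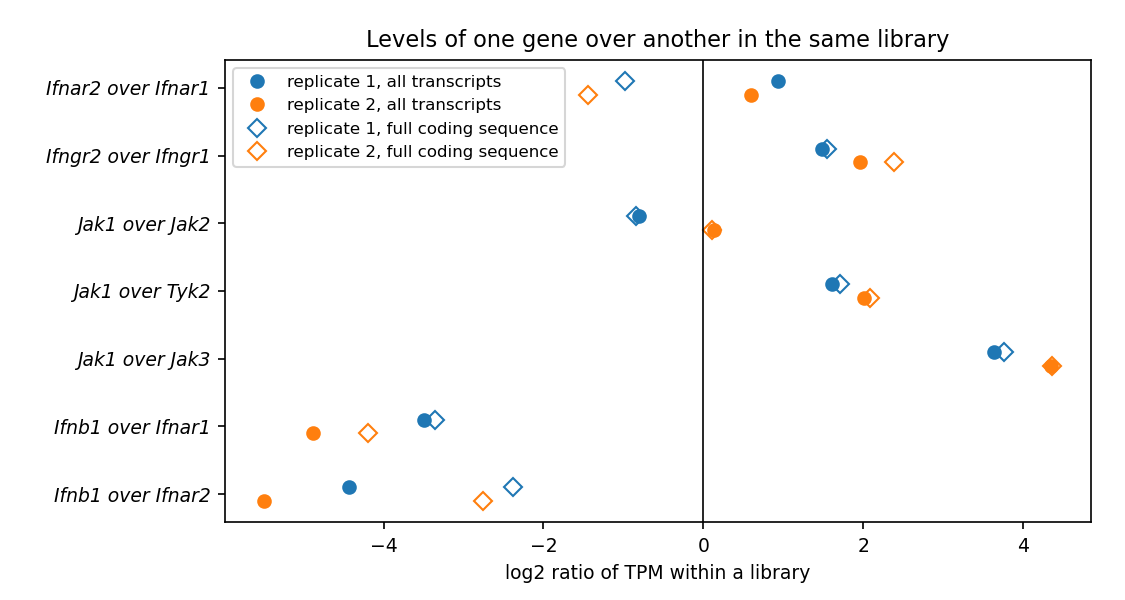
Log2 ratio of the TPM of one gene over another within a library, replicate 1 in blue and replicate 2 in orange; filled circles use all transcripts and open diamonds those with the full coding sequence. Ifnar2 over Ifnar1 lies at 0.94 and 0.60 with all transcripts and at -0.97 and -1.44 with full coding sequences, and Jak1 over Jak2 lies on either side of 0.

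In order of mean TPM the genes ran Jak2, Ifnar2, Jak1, Ifnar1, Ifngr2, Tyk2, Ifngr1, Jak3, Ifnb1 and Ifng. Jak2, Ifnar2 and Jak1 had overlapping ranges, and so did Ifnar1 and Ifngr2. The ranges of all other neighbours in this order were apart.

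Between the libraries 7 of 9 genes differed by less than 1.5-fold. The 9 genes with enough counts (all but Ifng) were compared by counts scaled to library size, as replicate 2 over replicate 1, and a difference of 1.5-fold was counted. This compares 2 libraries and no conditions. Jak1 was 1.73-fold higher in replicate 2 (counting interval 1.70 to 1.77) and Ifngr2 1.71-fold higher (1.66 to 1.75). Among all 12226 genes tested, 35.8% passed 1.5-fold, made up of 16.7% higher in replicate 2 and 19.1% higher in replicate 1. Members past it (2 of 9) were close to that background. None of the 9 passed 2-fold, where 13.2% of genes tested did, 5.25% higher in replicate 2 and 7.94% higher in replicate 1. Ifnar2, Ifnar1 and Tyk2 were 1.33-fold, 1.32-fold and 1.30-fold higher in replicate 2, Ifngr1 1.21-fold, and Jak3 1.03-fold with an interval of 0.953 to 1.11. Jak2 was at 0.90-fold (0.887 to 0.913). The median log2 ratio of the 9 genes was 0.38 and that of all genes tested was -0.01. With the trend of the ratio on GC content and length removed, that of Jak1 was 0.71 and that of Ifngr2 was 0.64 on the log2 scale, still past 1.5-fold. Those of Tyk2, Jak2, Ifnb1 and Jak3 then came to 0.07, 0.01, 0.10 and -0.24, so the signs of the last 3 depended on that trend.

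**Figure D4:**
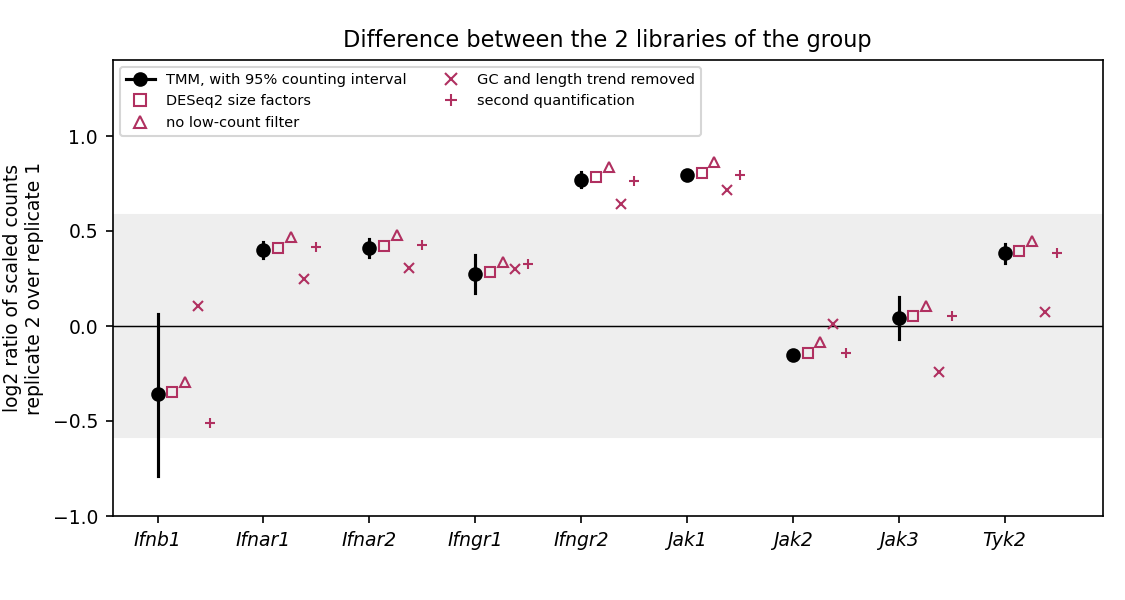
Log2 ratio of library-scaled counts, replicate 2 over replicate 1, for the 9 genes with enough counts; black points carry 95% exact counting intervals, coloured symbols are other ways of scaling or counting, and the grey band marks differences under 1.5-fold. Jak1 and Ifngr2 lie above the band under every setting drawn, and the interval of Ifnb1 crosses 0.

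Downstream and neighbouring genes of the pathway were read from lists chosen with earlier results of these data known. All 7 genes read for the STAT proteins and IRF9 reached 1 TPM in both libraries, led by Stat2 at 357 and 420 TPM, Stat3 at 158 and 289 TPM and Stat5a at 91.8 and 122 TPM, with Stat4 lowest at 3.07 and 3.59 TPM. Stat2, part of the type I response, was thus above every receptor chain and kinase gene in both libraries. The medians of the list were 68.3 and 77.9 TPM. Of these 7, 2 were past 1.5-fold, both higher in replicate 2, namely Stat3 at 1.54-fold and Stat5a at 1.82-fold, where 16.7% of all genes tested were higher in replicate 2.

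All 18 genes listed as inhibitors of receptor and kinase signalling were present. Isg15, whose protein stabilises the receptor inhibitor USP18 in human cells and is also a ubiquitin-like modifier, was highest at 2507 and 1667 TPM. Whether it acts as an inhibitor in these mouse cells was not tested. Usp18, which binds IFNAR2 and blocks JAK1, had 529.6 and 574 TPM, and Socs3, an inhibitor of cytokine receptor signalling, had 357 and 308 TPM. Usp18 thus exceeded every receptor chain and kinase in both libraries. Cish was lowest at 3.08 and 2.17 TPM. Ptpn1, a phosphatase that acts on JAK2 and TYK2, had 72.4 and 370 TPM and was 2.07-fold higher in replicate 2 by scaled counts. Of the 18, 4 were past 1.5-fold higher in replicate 2 and 1 in replicate 1, where 16.7% and 19.1% of all genes tested were.

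Genes of the interferon gamma response were high although Ifng was nearly absent. All 8 reached 1 TPM, with medians of 591 and 1148 TPM. Gbp2, a guanylate-binding protein gene, had 2101 and 2496 TPM, Cd274 (PD-L1) 1530 and 1660 TPM and Irgm1 1363 and 1270 TPM, while Ciita, which switches on class II antigen presentation genes, had only 5.17 and 8.50 TPM. Many of these genes also answer to type I interferon or to Toll-like receptors, so their level is not a reading of interferon gamma. Cxcl9 had 331 and 1507 TPM and was 2.04-fold higher in replicate 2, the library without Ifng counts.

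Of 24 chains of other receptors that use Janus kinases, 17 reached 1 TPM in both libraries. The highest were Il2rg, the interleukin-15 receptor chain Il15ra at 308 and 282 TPM, and Csf2rb, the common beta chain, at 102 and 465 TPM, and Il5ra was lowest at 0.16 and 0.06 TPM. The list medians were 16.3 and 20.4 TPM, against 82.7 and 134 TPM for the 4 interferon receptor chains. Of 19 chains tested, 10 were past 1.5-fold higher in replicate 2 and 2 in replicate 1, against 16.7% and 19.1% of all genes tested. Csf2rb, its near copy Csf2rb2, Il12rb2 and Osmr were past 2-fold, at 2.19, 2.11, 2.31 and 2.90. Reads of Csf2rb and Csf2rb2 can be shared between the copies, so their separate values are uncertain.

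**Figure D5:**
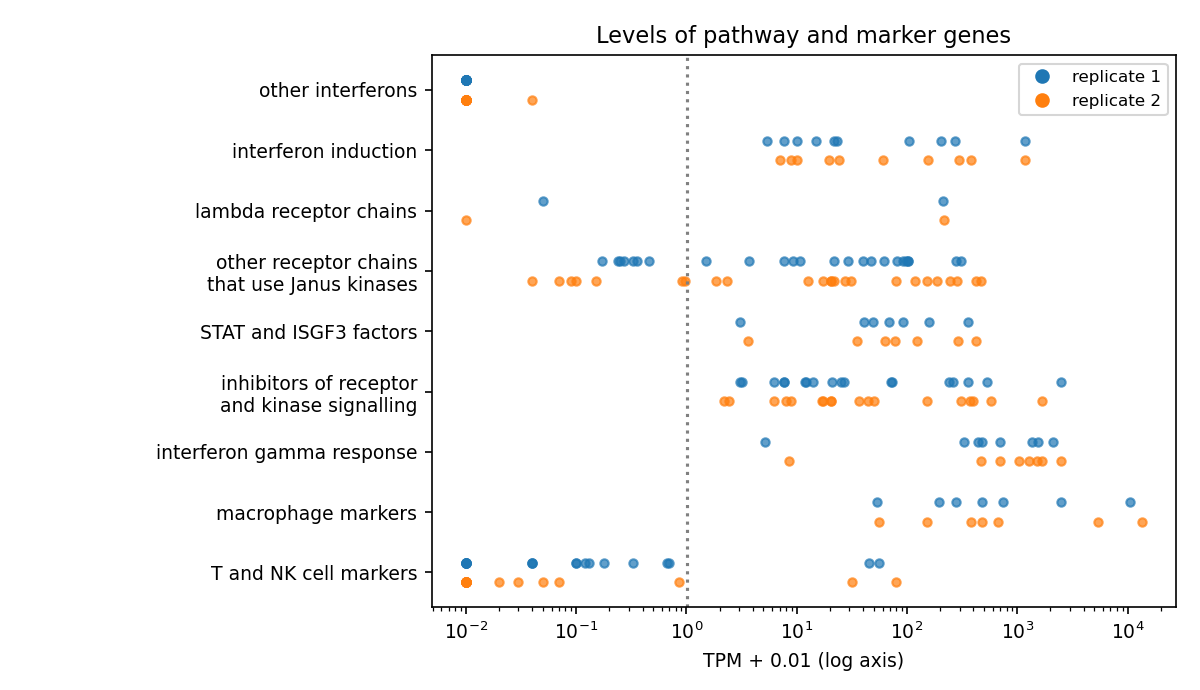
TPM + 0.01 on a log axis for each gene of the pathway and marker lists, replicate 1 in blue and replicate 2 in orange, with the dotted line at 1 TPM. The other interferon genes lie at the left edge (0 counts) but for 1 count of Ifna2, while all STAT and IRF9, inhibitor and interferon gamma response genes lie right of 1 TPM.

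Overlapping genes held few reads. Those that overlap a member in the annotation had at most 13 counts (Raver2, at the edge of Jak1), 7.15 counts (Insl3, within Jak3) and 2.34 counts (the antisense gene 1700084C06Rik of Tyk2) in replicate 2. Whether reads were counted by strand is not given in the sources used here.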

How the data were processed

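Polyadenylated RNA of 2 libraries of 1 group was analysed. The authors quantified, per the file headers and the notes deposited with them, on mm10 with annotation M21, in RSEM-layout tables made from transcriptome alignments and kallisto-layout tables made from the reads (the second quantification). Which tools and versions ran is not given in the sources used here. Deposited expected counts are estimates with no normalization and can be fractional. Deposited TPM and FPKM are scaled to length and library. The percent column the authors deposited gives each transcript's share of its gene's TPM, and shares here were recomputed from TPM. Score columns deposited beside TPM hold the credibility bounds.

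Gene rows were kept, and 26345 rows with a number or spike-in name in place of a gene identifier, which held 0.132% and 0.0882% of counts, were left out. Counts were rounded, filtered with filterByExpr and scaled by TMM in edgeR 4.0.16 (R 4.3.3), with a prior count of 2, and DESeq2 1.42.0 gave alternative size factors. Ratio intervals are exact binomial (95%) and cover counting error only. The ratio script was tested on simulated data. With 2 libraries of 1 group no test between conditions exists and no p-value was made. Named genes are all members, of each pathway, reference and macrophage list the 3 highest and the lowest by mean TPM and those past 2-fold with at least 100 summed counts, and of each list of other cells the highest. Other named marker genes were chosen after their values were seen. Members and lists were chosen with earlier results of these data known, and transcript classes after transcript values were seen. No gene of like pattern was sought, as 2 libraries give 1 difference per gene. All 147 list genes matched, Sting1 as Tmem173. Some further genes of the lists are not reported here.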

Additional observations from a re-analysis of the deposited data

How the results depend on the processing

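The log2 TPM ratio of Ifnar2 over Ifnar1 changed sign with the transcripts counted. It was 0.77 with all transcripts, 1.19 with protein-coding transcripts alone, and it reversed to -1.21 with full coding sequences and to -1.18 with these in the second quantification, since Ifnar2-203 is coding but short. With full coding sequences Ifnb1 over Ifnar2 was -2.57, and -2.02 in the second quantification, Ifnb1 over Ifnar1 was -3.20 in the second quantification, and the median receptor chain over the median kinase was -0.91 and -1.02, and -0.31 with protein-coding transcripts. Leaving out 1 library, Jak1 over Jak2 ranged from -0.80 to 0.14 and the median receptor chain over the median kinase from -0.27 to 0.0019, so both changed sign without replicate 1. All 36 alternative ratios between the libraries kept their side of 1.5-fold. Among the 9 genes compared, the count of 2 past it held under every scaling, filter and quantification tried, and it was 0 at 2-fold. Ifng was not in that count under any setting. Without the low-count filter it was left out by choice, because 0 counts in replicate 2 give a bound and no ratio. That bound, at least 13.3-fold, lies past both thresholds. Without the filter 46.1% of all genes passed 1.5-fold. Counting detection at 0.5 or 2 TPM left 9 of the 10 genes detected. No paired analysis was possible because the series holds 1 group. Depth limits Ifnb1, with 89 and 102 counts, and Ifng, and with n = 2 an SD is itself uncertain.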

Other observations

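Some pathway genes had TPM values that differed far more between the libraries than their scaled counts. Ifnar1 did so to a lesser degree, at 1.71-fold by TPM and 1.32-fold by scaled counts. Ptpn1 had 72.4 and 370 TPM at 2.07-fold by scaled counts, Csf2rb had 102 and 465 TPM at 2.19-fold, and Cxcl9 had 331 and 1507 TPM at 2.04-fold, each higher in replicate 2. Among reference genes, Actb (9006 and 9360 TPM), B2m (9181 and 14667 TPM) and Gapdh (1173 and 1599 TPM) were highest and Tbp (12.2 and 30.7 TPM) lowest of those read, while Hprt was 2.15-fold higher in replicate 1 and Tbp 2.2-fold higher in replicate 2. Of the other marker lists, Bst2 was the highest plasmacytoid dendritic cell marker at 638 and 285 TPM, beside Siglech at 61 and 13 counts, and Cd79b the highest B cell marker at 1.11 and 0.49 TPM. Tcf4, the next highest plasmacytoid dendritic cell marker, had 147 and 158 TPM and was at 0.87-fold by scaled counts, replicate 2 over replicate 1. Bst2 and Tcf4 were the only 2 of the 6 markers in that list to reach 1 TPM in both libraries. Siglech and Tcf4 were chosen after their values were seen, and no cause of these differences was tested.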
